A study of Mus musculus with 12 samples.

Results

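The genes described here encode the proteins of the mitochondrial ribosome and of the 5 complexes that carry out respiration, together with assembly factors that share their names. They were taken by symbol from the mRNA peak lists: every gene name starting with Mrpl, Mrps, Nduf, Uqcr, Sdh or Atp5, or with Cox followed by a digit. This rule used no measured value and found 112 genes of the 10030 genes that had a peak in at least 1 of the 6 lists. The GENCODE annotation held 184 such genes, and 111 of these (60.3%) were among the 112, against 42.8% of the 21924 protein-coding symbols. The remaining member, Atp5sl, was not in that annotation under this name.

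The cells were C17.2, an immortalised line of mouse neural stem cells (NSCs) with a wild-type genotype, used here as a single line. The H/R group had 12 h of hypoxia at 5% oxygen followed by 48 h of reoxygenation in standard oxygen, and the control group stayed in standard oxygen. Methylated RNA immunoprecipitation sequencing (MeRIP-seq) was run on 3 H/R and 3 control samples, each as an immunoprecipitate with an antibody against N6-methyladenosine (m6A) and as the unselected input, which made 12 samples. Each pair gave a list of mRNA peaks, named A, B and C within its group, and a gene was counted as called in a library when it had a peak in that list. The labels did not say that the samples came from separate cultures, so that all spreads and p-values below measure only the difference between these samples, which may be technical.

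The mitochondrial ribosome translates the few respiratory chain subunits that the mitochondrial genome encodes, while its own proteins and most subunits of the chain are encoded in the nucleus and imported. Complex I (NADH dehydrogenase, Nduf genes) and complex II (succinate dehydrogenase, Sdh genes) feed electrons to complex III (Uqcr genes) and complex IV (cytochrome c oxidase, Cox genes), and ATP synthase (Atp5 genes) uses the proton gradient that results. m6A is placed on mRNA mainly at adenosines within the DRACH consensus, which reads A, G or T, then A or G, then A, then C, then A, C or T, and GGAC is a common core of it. Oxygen is the final electron acceptor of this chain.

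The sites below show the DRACH match nearest to the middle of the peak in the regions that the results turn on. Of these, 6 come from genes whose lowest p score over the 6 lists was the highest of their complex, ribosomal subunit or assembly factors. The other 2 come from genes called after H/R alone. The p score is −10 log10 of a peak's p-value, and the fold enrichment used below is its ratio of immunoprecipitate to local background. Each line gives 21 bases of the mm10 reference on the transcript strand from 5′ to 3′, with the 5 bases of the match in capitals. The first pair lies near the start codons of Ndufa12, an accessory subunit of complex I, and of its paralog Ndufaf2, a complex I assembly factor, at chr10:94199020-94199040 (plus strand) and chr13:108158483-108158503 (minus strand).
Ndufa12: gaaggggcGGACCatgcagat
Ndufaf2: gtgggcacGGACCatctgggg
The next 4 come from a protein of the large and of the small ribosomal subunit, a small subunit of complex III and a subunit of complex IV, at chr14:57826784-57826804 (plus), chr2:130565198-130565218 (plus), chr11:53429006-53429026 (minus) and chr1:36691504-36691524 (plus).
Mrpl57: gaccagctAGACCatctcaac
Mrps26: ctgactggGAACTcccagatg
Uqcrq: cctctgaaAGACCcttctctg
Cox5b: gcgttgttAGACTcccaccaa
The last pair comes from Cox11, which delivers copper to complex IV, and Cox6a1, a complex IV subunit, both called in the 3 H/R lists alone, at chr11:90638342-90638362 (plus) and chr5:115345781-115345801 (minus).
Cox11: acgcctcgGGACAtggaagcg
Cox6a1: ctggttttGGACCcttactct
A match is a description of the sequence and was not shown to be the methylated base. Searched on the transcript strand, DRACH stood in 90.1% of the 212 merged regions of the 112 genes, and GGAC, which overlaps it, in 57.5%. For all genes, 26719 regions were searched peak by peak and not over the merged region, and the shares were 94.0% and 66.8%. Peaks on members were also shorter than all peaks, so these shares are not like for like. Within the peaks on these genes GGAC occurred 3.96 ± 0.282 times per kb in H/R lists and 3.84 ± 0.343 times per kb in control lists (SD, n = 3 each), against 4.51 in either group over all genes. Over the whole transcripts of the called members, GGAC was as dense inside peaks (4.06 per kb) as outside them (3.92 per kb).

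Across the series, the H/R lists held 18706, 13954 and 22038 mRNA peaks (A, B and C) and the control lists 12180, 8932 and 7863, so that the H/R lists were longer throughout. The median fold enrichment over all peaks was lower in H/R lists, 11.6 against 27.9 in control lists, while the mean of the median p scores was higher, 356 in H/R lists and 263 in control lists, with groups that overlapped. On the 112 genes the p scores were 378 ± 61.5 and 188 ± 47.2 (SD, n = 3 each), with no overlap. The lists give no read numbers and read totals were not used here, so the depth behind a peak is not known from them and no counting interval is given. The false discovery rate printed beside the peaks was 5% or less for 15 peaks of all lists and for 0 of the 675 peaks on these genes, whose lowest rate was 24.98%. Of the NSC markers, Nes, Notch1 and Sox2 were called in all 6 lists, while Fabp7, Pax6, Prom1 and Vim were called in none. Of the markers of neurons, astrocytes, oligodendrocytes, microglia and endothelium, 1 gene of each list had a peak in any library. In bulk RNA, fewer methylated copies per cell and fewer cells carrying them cannot be told apart, and the lists do not give the expression of a gene.

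The 112 genes carried more peaks in the H/R lists. H/R A, B and C held 146, 122 and 164 such peaks and control A, B and C held 115, 62 and 66, with means of 144 ± 21.1 and 81.0 ± 29.5 (SD, n = 3 each). These ranges did not overlap. The genes called numbered 90, 79 and 96 in H/R A to C, against 80, 48 and 50 in control A, B and C, that is 78.9% ± 7.70 and 53.0% ± 16.0 of the members. Here the groups did overlap, since H/R B lay below control A. Over all 10030 genes the same shares were 78.7% ± 11.6 and 54.5% ± 9.06, with no overlap. The members made up 1.12% ± 0.0593 of the called genes in H/R lists and 1.07% ± 0.158 in control lists, which overlapped. When peaks under 10-fold were left out of every list, the share of members called was 48.8% in H/R lists and 51.5% in control lists, while that of all genes was 57.4% and 53.95%.

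**Figure D1:**
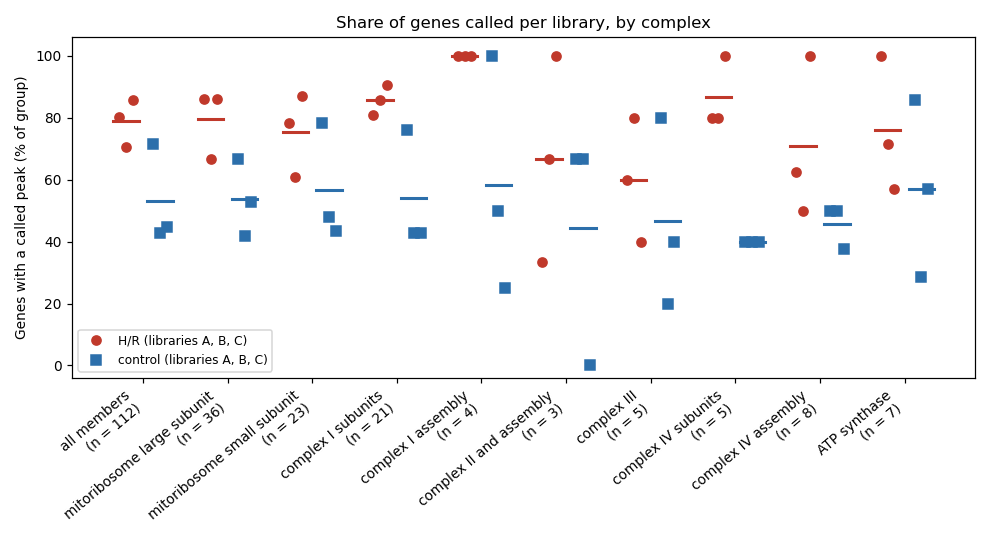
Percent of the member genes of each complex with at least 1 mRNA peak, per library, with H/R libraries left of control libraries and the group mean as a bar. H/R libraries lie higher in most complexes, and in the subunits of complexes I and IV they do not overlap with control libraries, as over all genes of the lists.

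Complex I subunits were called more often in every H/R library than in any control library, and 17, 18 and 19 of the 21 members had a peak in H/R A, B and C, against 16, 9 and 9 in control A, B and C. The groups did not overlap (85.7% ± 4.76 and 54.0% ± 19.2, SD, n = 3 each), although control A lay just below H/R A, and the means lay near those of all genes, which did not overlap either. Complex IV subunits were called for 4, 4 and 5 of 5 members in H/R lists and for 2 in each control list, again with no overlap. The mean shares were 86.7% and 40%, against 78.7% and 54.5% of all genes. A gene became a member through a peak in any list. Of the 5 complex IV members 2 had peaks in H/R lists only, as had 5 of the 21 complex I members, so these entered through H/R alone. The large ribosomal subunit had 31, 24 and 31 of 36 members called in H/R A, B and C, against 24, 15 and 19 in controls, and the small subunit had 18, 14 and 20 of 23 against 18, 11 and 10. In both ribosomal groups control A reached at least the lowest H/R library. Complex II with its assembly factors (1, 2 and 3 of 3 members in H/R, 2, 2 and 0 in controls) and complex III (3, 4 and 2 of 5 in H/R, 4, 1 and 2 in controls) overlapped between the groups. Genes named for ATP synthase, with Atp5sl counted by its symbol, had 7, 5 and 4 of 7 members called in H/R and 6, 2 and 4 in controls. Assembly factors of complex IV (5, 4 and 8 of 8 in H/R, 4, 4 and 3 in controls) and of complex I (4, 4 and 4 of 4 in H/R, 4, 2 and 1 in controls) overlapped or met.

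How much of each complex carried a peak at all differed between complexes. Genes were assigned to complexes by symbol. Of the annotated genes, 79.3% of the 29 named for the small ribosomal subunit were called in at least 1 list. So were 73.5% of the 49 named for the large ribosomal subunit and 80% of the 10 complex IV assembly factors. The share was 62.5% of 8 in complex III, 55.3% of 38 in complex I subunits, 50% of 8 in complex I assembly factors, 37.5% of 8 in complex II with its assembly factors, 35.3% of 17 in ATP synthase and 29.4% of 17 in complex IV subunits. The genes with no peak in any list numbered 73. They included Atp5a1, Atp5b and Atp5c1, the main subunits of the catalytic part of ATP synthase, Sdha, the flavoprotein of complex II, with its membrane anchor Sdhd, Ndufs1 and Ndufv1, core subunits of the electron-input arm of complex I, Uqcrc2, a core protein of complex III, and Cox4i1, the common isoform of a complex IV subunit. Cox4i2 and Ndufa4l2, known from other cells as hypoxia-induced, and Ndufa4, whose product is now placed in complex IV, had no peak either. Ndufa4 was counted with complex I by its symbol. A gene that was little expressed and a gene that was expressed without m6A cannot be told apart in these lists.

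In all 6 lists, 38 members were called, which is 33.9% of them against 39.5% of all genes. These were 14 genes of the large ribosomal subunit (Mrpl12, Mrpl14 to Mrpl18, Mrpl39, Mrpl41, Mrpl42, Mrpl44 to Mrpl46, Mrpl52 and Mrpl57), 9 named for the small subunit (Mrps5, Mrps18a, Mrps24 to Mrps27, Mrps30, Mrps35 and Mrps36), 7 complex I subunits (Ndufa8, Ndufa12, Ndufa13, Ndufab1, Ndufb4, Ndufs5 and Ndufv3), Ndufaf2, Uqcrq, Cox5b, the assembly factors Cox10, Cox17 and Cox19, and the ATP synthase genes Atp5g3 and Atp5j2. Mrps18a and Mrps30 are named for the small subunit, but in structures of the human ribosome their products sit in the large one, and the product of Mrps36 belongs to the oxoglutarate dehydrogenase complex. By symbol, Mrps18a, Mrps30 and Mrps36 stay with the small subunit in all counts and shares given here.

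The other members were called in fewer lists. Of all 112, 57 (50.9%, against 52.4% of all genes) were called in more H/R than control lists, 4 (3.57%, against 3.92%) in more control than H/R lists, and 51 in equal numbers, the 38 included. Among the 4 were Mrps14, Mrpl4 and Cox15, the heme A synthase needed for complex IV. Their peaks were few. Mrps14 had a peak of 8.71-fold in control A alone, and Cox15 had 8.05-fold in H/R C, against 15.74-fold in control A and 21.22-fold in control B. Mrpl4 had 5.29-fold in H/R C, against 11.67-fold in control A and 18.71-fold in control C. Of the members, 29 were called in at least 1 H/R list and no control list (25.9%, against 31.2% of all genes), and 2 in at least 1 control list and no H/R list (1.79%, against 1.99%).

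The other members with more H/R than control calls are given with their share and that of all genes. With all 3 H/R lists and 2 control lists came 12 genes, Mrpl23, Mrpl55, Mrps7, Mrps15, Ndufa5, Ndufa10, Ndufb9, Ndufaf5, Sdhaf2, Uqcr11, Cox5a and Atp5d (10.7%, against 9.86%). With all 3 H/R lists and 1 control list came 9, Mrpl3, Mrpl35, Mrpl40, Mrps6, Ndufa6, Ndufb10, Ndufaf1, Ndufaf4 and Cox7b (8.04%, against 7.12%). Cox7b, a small complex IV subunit, had 3.64-, 6.69- and 4.26-fold in H/R A, B and C, against 19.64-fold in control A. These values were not matched by position. The control A peak had its centre in the 3′UTR, where 0 of the 15 H/R peaks on complex IV subunits had theirs. Calls in 2 H/R lists and 1 control list were found for Mrpl32, Mrpl37, Mrpl38, Mrps2, Ndufs6, Ndufs8 and Atp5s (6.25%, against 4.21%), and calls in 2 H/R lists alone for Mrpl1, Mrpl54, Mrps11, Mrps31, Ndufs4, Cox7a2l and Atp5e (6.25%, against 8.08%). A single H/R list held Mrpl2, Mrpl13, Mrpl28, Mrpl36, Mrpl50, Mrps9, Mrps16, Ndufs7, Sdhc, Uqcrfs1, Cox8a, Cox14 and Cox20 (11.6%, against 18.2%). Uqcrfs1, the Rieske iron-sulfur protein of complex III, was among these with 3.57-fold in H/R A, and Cox7a2l, which joins complexes III and IV, had 7.21- and 8.18-fold in H/R A and C. Equal calls outside the 38 were found for Mrpl19, Mrps12, Ndufc1, Sdhb and Atp5sl (2 lists of each group, 4.46% against 1.98%) and for Mrpl22, Mrpl27, Mrps21, Mrps28, Mrps33, Uqcr10, Uqcrc1 and Atp5h (1 of each, 7.14% against 2.18%).

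A set of 9 members had a peak in every H/R library and none in the controls, which is 8.04% of the members against 4.96% of all genes. The opposite pattern was found for 0 members and for 0.0698% of all genes. The 9 were the complex I genes Ndufv2, a core iron-sulfur subunit, and Ndufa2 and Ndufa11, accessory subunits, the complex IV genes Cox11 and Cox6a1, and the ribosomal genes Mrpl10, Mrpl20, Mrpl51 and Mrps22. Cox6a1 had a single peak near its stop codon (chr5:115345642-115345926, minus strand) of 3.40-, 5.69- and 5.02-fold in H/R A, B and C. Mrpl20 had regions in its coding sequence and around its stop codon (chr4:155808479-155808831, plus strand), and the stop codon region had 6.30-, 7.05- and 5.24-fold enrichment. The Mrpl51 region in the 3′UTR (chr6:125193223-125194205, plus strand) had 7.40-, 10.31- and 7.92-fold, and the Ndufa2 region at the start codon 6.63-, 8.12- and 5.80-fold. Higher folds were found for Cox11, with 9.78-, 8.91- and 18.15-fold in its coding sequence (chr11:90638173-90638552, plus strand), and for Mrpl10, with 9.91-, 14.05- and 12.04-fold in its coding sequence (chr11:97044528-97044697, plus strand). Mrpl10 also had a start codon region (chr11:97041560-97041652) of 21.95-fold in H/R B and 27.2-fold in H/R C, with no peak there in H/R A. Ndufv2 reached 16.32-fold in H/R B at its start codon, against 5.75- and 4.95-fold in H/R A and C, in a region with 0 DRACH matches. The Ndufa11 region overlapped an exon of Vmac on the opposite strand, and Mrps22 had peaks in all 3 H/R lists but no single region shared by them.

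Control lists held few peaks of low fold, while the higher values of Mrpl10, Cox11 and Ndufv2 lay within the range of control peaks. The lowest fold enrichment of any peak on the 112 genes was 2.74, 5.69 and 3.04 in H/R A to C, against 6.52, 12.72 and 11 in control A, B and C. Peaks under 10-fold numbered 86, 30 and 99 in H/R A to C (58.9%, 24.6% and 60.4% of the peaks on members) and 11, 0 and 0 in control A, B and C. With a minimum of 10-fold in every list, or with the 7863 peaks of highest p score taken from each list, the count of members called after H/R alone was 0 (background 1.58% and 1.13%). With p scores of at least 100, the count was 8 (background 5.97%), of which Mrpl10, Mrps22 and Ndufa2 were among the 9 above. Whether the lists' different ranges of fold enrichment produced these calls was not tested. By region, 14 regions in 12 of these and other members were found in the 3 H/R lists alone (6.60%, against 6.21% of all 27079 regions) and 0 in the 3 control lists alone (background 0.0628%). Beyond the genes above they lay in Mrpl35, Mrpl39, Mrpl42 and Mrps15, which also had other regions in controls.

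The fold enrichment of the members was lower after H/R, as it was for all peaks. The median over the peaks on members was 9.20, 14.9 and 8.86 in H/R A to C, against 18.4, 31.9 and 29.2 in control A, B and C, with no overlap (means of library medians 10.99 ± 3.40 and 26.5 ± 7.12, SD, n = 3 each). Over all genes these means were 11.6 and 27.9. Peaks on members were shorter, with a median of 225 bases in H/R lists and 266 in control lists, against 298 and 535 for all peaks. Each called member had 1.62 ± 0.0820 peaks in H/R lists and 1.35 ± 0.0773 in control lists, against 2.29 and 1.76 for all called genes. Most members had few separate regions over the 6 lists: 54 had 1, 30 had 2, 18 had 3 and 7 had 4, while Cox10, the heme O synthase, and Mrps15 had 5 and Mrps5 had 6.

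To compare regions one by one, peaks were merged over the lists, and the 44 member regions present in all 6 lists (20.8% of 212, against 22.0% of all regions) lay in 35 genes. They comprised 13 regions at start codons, 12 in coding sequence, 10 at stop codons and 9 in 3′UTRs. As deposited, the fold enrichment was lower after H/R in 42 of the 44 regions (95.5%, against 97.0% of all regions), and in 25 of them every H/R value lay below every control value (56.8%, against 54.3% of the 5950 regions in all lists). In 0 of them did every H/R value lie above (background 0.168%). The median difference was −0.89 on the log2 scale for the members and −0.78 for all regions. Each library's log2 fold was therefore centred on its median over the shared regions. After centring, 29 regions had a negative and 15 a positive difference (H/R minus control), and 65.9% were negative, against 54.1% of all regions. The median was −0.15, against −0.03 for all regions.

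**Figure D2:**
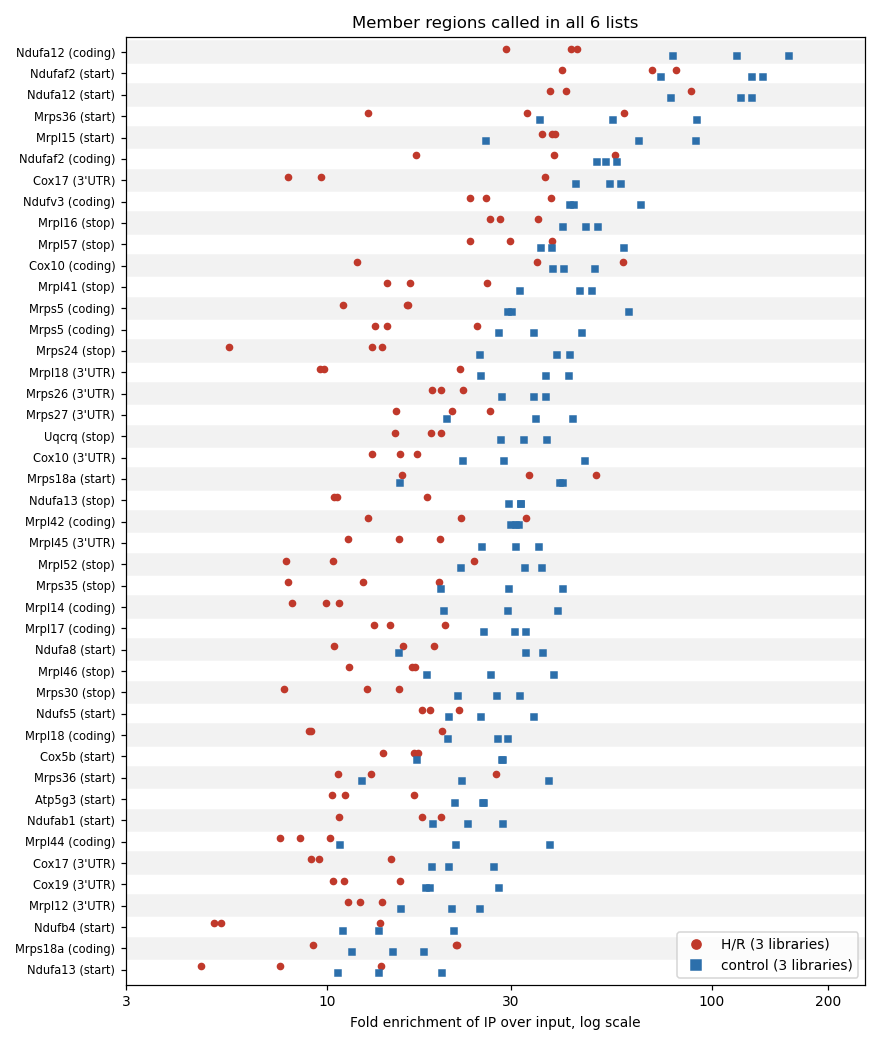
Fold enrichment as deposited (log axis) of each of the 44 member regions present in all 6 lists, with the 3 H/R points above the 3 control points in each row and the part of the transcript in brackets. H/R values lie entirely below control values in 25 regions, and the regions of Ndufa12 and Ndufaf2 reach the highest folds.

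The highest folds were those of Ndufa12 and Ndufaf2. The start codon region of Ndufaf2 (chr13:108158443-108158625, minus strand) had 40.71-, 80.80- and 69.88-fold enrichment in H/R A, B and C, against 126.66-, 135.91- and 73.70-fold in control A, B and C. The groups overlapped in the deposited and the centred values, with a centred difference of −0.08 ± 0.286 (log2, SE). The start codon region of Ndufa12 (chr10:94198955-94199130, plus strand) had 37.85-, 87.98- and 41.80-fold in H/R, against 118.85-, 78.28- and 126.79-fold in controls, and its centred difference of −0.28 ± 0.340 did not pass either, running from −0.618 without control B to −0.0908 without control C. A separate exon of Ndufa12 (chr10:94199950-94200032) carried a region of 29.16-, 42.97- and 44.66-fold in H/R, against 78.95-, 158.71- and 116.27-fold in controls.

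In the ribosome, Mrpl57 had the highest p scores of the large subunit, at a region around its stop codon with 23.55-, 38.37- and 29.89-fold in H/R and 38.42-, 35.95- and 59.07-fold in controls. By the same measure Mrps26 stood highest in the small subunit, in the 3′UTR, with 18.67-, 22.49- and 19.71-fold in H/R and 34.50-, 28.41- and 37.11-fold in controls. The deposited values of Mrpl57 overlapped between the groups, those of Mrps26 did not, and neither gene had a centred difference beyond its error (0.21 ± 0.299 and 0.03, log2). The highest fold among genes named for the small subunit was that of Mrps36, whose start codon region (chr13:100744530-100744659) had 12.77-, 59.11- and 33-fold in H/R and 35.64-, 91.13- and 55.19-fold in controls, with groups that overlapped. Mrpl16 had 35.33-, 26.45- and 28.07-fold at its stop codon in H/R and 40.97-, 46.90- and 50.68-fold in controls. Mrpl12, whose product also binds the mitochondrial RNA polymerase, had 11.29-, 13.84- and 12.17-fold in its 3′UTR in H/R and 21.06-, 25- and 15.51-fold in controls, in a region that overlaps an exon of Gm16755 on the opposite strand. Mrps27 had 15.09-, 21.11- and 26.56-fold in its 3′UTR in H/R and 34.83-, 43.64- and 20.45-fold in controls, which overlapped, and Mrps30 had 12.70-, 15.35- and 7.70-fold at its stop codon, against 27.66-, 31.61- and 21.81-fold.

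The leading subunits of complexes III and IV and of ATP synthase had lower folds. Uqcrq had 14.98-, 18.58- and 19.81-fold around its stop codon in H/R, against 28.35-, 32.46- and 37.27-fold in controls. Cox5b had 13.95-, 17.17- and 16.77-fold at its start codon in H/R, against 17.06-, 28.62- and 28.43-fold in controls. Atp5g3, which encodes the c subunit of the ATP synthase rotor, had 10.29-, 16.82- and 11.12-fold at its start codon, against 21.43-, 25.43- and 25.53-fold, while Atp5g1 and Atp5g2, which encode the same mature protein, had no peak. Deposited values of Cox5b overlapped between the groups and those of the other two did not. The centred differences of Uqcrq, Cox5b and Atp5g3 were −0.13, 0.15 and −0.21 on the log2 scale, with adjusted p = 0.903, 0.889 and 0.809 (limma). The Atp5g3 region held 0 DRACH matches. Complex II gave the fewest values. Sdhb, its iron-sulfur subunit, had 10.30- and 6.23-fold in H/R B and C and no peak in H/R A, against 13- and 21.70-fold in control A and B, and Sdhc, a membrane anchor, had a single peak of 7-fold in H/R C. Sdhaf2, which attaches the flavin to Sdha, was the most regular member of complex II, with 10.91-, 16.29- and 17.07-fold in H/R and 20.50- and 29.18-fold in control A and B.

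With limma and Benjamini-Hochberg adjustment over all 5950 regions, 0 of the 44 member regions passed an adjusted p of 0.05 (background 0.0504% higher and 0.0672% lower after H/R), and the smallest adjusted p was 0.299. An unadjusted p under 0.05 was reached by 8 regions, 7 of them lower (15.9%, against 5.41% of all regions) and 1 higher after H/R (2.27%, against 5.18%). After centring, the groups were apart in 6 regions with lower H/R values (13.6%, background 8.32%) and in 1 with higher H/R values (2.27%, background 7.56%). On the deposited, uncentred values 22 of the 44 regions passed as lower after H/R (50%, background 39.2%), a count that carries the shift shared by all regions.

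**Figure D3:**
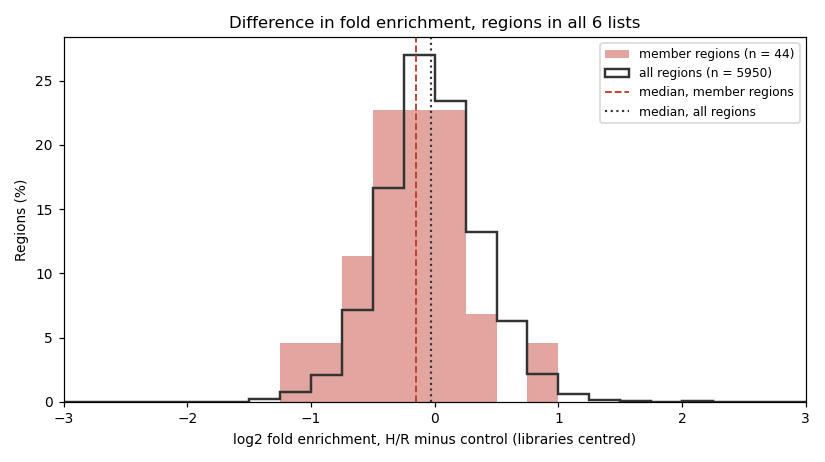
Histogram of the centred log2 difference in fold enrichment (x axis, H/R minus control; y axis, percent of regions) for the 44 member regions (filled) and all 5950 regions in the 6 lists (outline), with their medians of −0.15 and −0.03 as vertical lines. Member regions span −1.13 to 0.91, within the span of all regions.

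The 8 regions are given for their values and not as changes. Mrps24, Mrpl14 and Mrps18a among them lay outside the rule for named genes and were chosen after their values were seen. The largest negative difference was that of Cox17, the copper chaperone of complex IV assembly, in a 3′UTR region (chr16:38352053-38352744, plus strand) with 9.65-, 36.91- and 7.89-fold in H/R A, B and C, against 44.40-, 57.83- and 54.31-fold in control A, B and C. Its centred difference was −1.13 ± 0.418 (log2, SE; adjusted p = 0.371, limma), with H/R B far from the other H/R libraries and within the control range after centring. Leaving out H/R B gave −1.70, and leaving out H/R C gave −0.74. This Cox17 region lay 3100 bases past the stop codon of a listed transcript of 3690 bases. The RefSeq transcript of Cox17 has 436 bases, fewer than the 692 of the region. Mrps24 had 5.54-, 13.85- and 13.05-fold at its stop codon (chr11:5704203-5704732, minus strand) in H/R, against 39.57-, 42.86- and 24.99-fold in controls, a centred difference of −1.06 ± 0.320 (adjusted p = 0.302, limma). Mrpl14 had 8.09-, 10.75- and 9.91-fold in its coding sequence (chr17:45698048-45698495, plus strand) in H/R, against 29.42-, 39.83- and 20.07-fold, a centred difference of −0.84 ± 0.253 (adjusted p = 0.299, limma). In both the groups were apart before and after centring, and leaving out a library did not turn the sign.

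The coding region of Ndufa12 given above had a centred difference of −0.82 ± 0.270 (adjusted p = 0.334, limma), and its groups were also apart. Mrps5 had 11.01-, 16.11- and 16.24-fold in its coding sequence (chr2:127595664-127596057, plus strand) in H/R, against 30.12-, 60.69- and 29.58-fold in controls. Ndufa13, an accessory subunit of complex I, had 10.43-, 18.14- and 10.60-fold at its stop codon in H/R, against 31.86-, 31.95- and 29.68-fold in controls. Both were apart after centring, with differences of −0.66 ± 0.270 and −0.56 ± 0.249. Mrpl18 had 9.57-, 22.17- and 9.82-fold in its 3′UTR in H/R, against 25.09-, 42.37- and 36.99-fold, a centred difference of −0.67 with groups that overlapped. The only positive difference of the 8 was that of a 32-base region in the coding sequence of Mrps18a (chr17:46117940-46117971, plus strand), with 9.21-, 21.78- and 21.56-fold in H/R, against 11.62-, 17.85- and 14.84-fold in controls. Its centred difference was 0.91 ± 0.304 (adjusted p = 0.342, limma), while its deposited values overlapped. The Mrps18a region held 0 DRACH matches.

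Many peaks on these genes had their centre close to an end of the coding sequence. Some peaks were as long as the longest exon of their gene, such as those of Cox5b (203 bases), Uqcr10 (253) and Atp5d (396). A peak centre can therefore be the centre of an exon, and the effect of exon bounds on these positions was not tested. Start and stop codon windows, each reaching 100 bases to both sides, held 28.7% ± 1.18 and 24.5% ± 1.66 of the peaks on members in H/R lists, and 27.3% ± 2.90 and 25.4% ± 7.25 in control lists (SD, n = 3 each). Over all genes the start window held 12.3% and 10.2%, and the stop window 5.56% and 6.02%. The transcripts of the members are short, so that these windows made up 16.7% and 18.3% of their bases in H/R lists, against 6.15% and 6.37% for all genes. By peak centres, the mean share in the members was thus above the share of bases for both windows, while over all genes this held for the start window and not for the stop window. Counting every peak base, the members' start window held 14.6% in H/R lists and 12.0% in control lists, below its share of bases (16.7% and 16.5%), and the 3′UTR held 36.2% and 40.3%, above its share (28.5% and 30.1%). By the same count the stop window held 21.4% in H/R lists and 22.6% in control lists, still above its share (18.3% in either group).

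**Figure D4:**
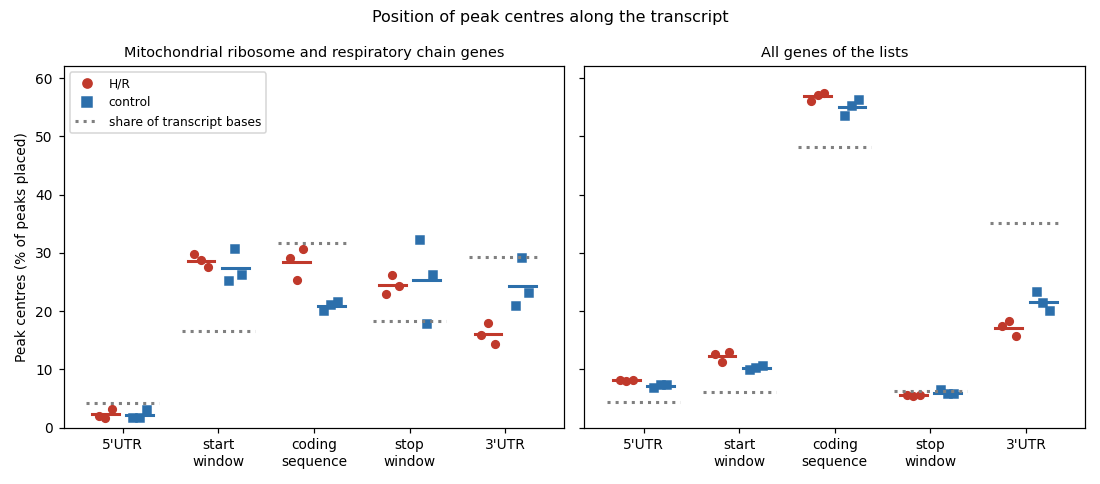
Percent of peak centres in each part of the transcript, per library, on member genes and on all genes of the lists, with H/R left of control, group means as bars and the share of transcript bases as dotted lines. On members, H/R libraries have a higher share in coding sequence and a lower share in the 3′UTR without overlap, while the start and stop windows overlap between the groups. Over all genes, the 3′UTR shares do not overlap either, and the coding shares do.

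Between the groups, the coding sequence outside the windows held 29.2%, 25.4% and 30.6% of the peaks on members in H/R A, B and C, against 20%, 21% and 21.5% in control A, B and C. The 3′UTR held 16%, 18% and 14.4% in H/R lists, against 20.9%, 29.0% and 23.1% in control lists. Neither pair of groups overlapped, with means of 28.4% ± 2.69 and 20.8% ± 0.778 for coding sequence and of 16.1% ± 1.83 and 24.3% ± 4.22 for the 3′UTR. Over all genes the coding shares were 56.9% and 55.0%, with groups that overlapped. The 3′UTR shares over all genes were 17.2% and 21.6%, and these did not overlap either. With the same number of peaks in each list, the differences on members were 1.76 percentage points in coding sequence and −2.80 in the 3′UTR, against 7.57 and −8.20 with all peaks.

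The place of the peak differed by complex. Complex I subunits had 49 of 101 peaks (48.5%) in the start window in H/R lists and 30 of 58 (51.7%) in control lists. Large-subunit ribosomal genes had most in the stop window, with 43 of 129 (33.3%) in H/R and 28 of 65 (43.1%) in control lists, and in the small subunit the start window held 27 of 89 (30.3%) and 12 of 53 (22.6%). Complex IV assembly factors had 15 of 28 peaks (53.6%) in the 3′UTR in H/R lists and 14 of 17 (82.4%) in control lists, with Cox10, Cox15, Cox17 and Cox19 among their genes, while complex IV subunits had 0 of 15 there in H/R lists and 1 of 6 in control lists, and 8 of 15 and 0 of 6 in the stop window. Complex III had 8 of 15 in the stop window in H/R and 5 of 12 in control lists. Peaks of 1 gene in several libraries recur in these counts, so they are not independent. The counts also rest on peak centres, which can be exon centres, and the Cox17 region was placed on the longer transcript given above. The windows have a fixed width while transcripts differ in length, such as 454 bases for Ndufb4 and 4798 for Cox15. The share of transcript bases in each window was not worked out by complex. How far transcript length set these places was not tested.

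The genes were called often for their length. The median transcript of the called members had 1029 bases and 4 exons with a longest exon of 396 bases, against 3239 bases, 9 exons and 1555 bases for all called coding genes. Family genes never called were shorter, at 772 bases. Among transcripts under 750 bases, 41.0% ± 4.12 of 70 family genes were called per H/R list and 29.5% ± 9.18 per control list, against 8.93% and 5.62% of the other 1352 coding genes. In transcripts of 2500 bases or more, the shares were 62.7% and 43.1% for the family and 49.2% and 35.4% for other genes. Expression, which the lists do not hold, was not matched in this comparison.

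**Figure D5:**
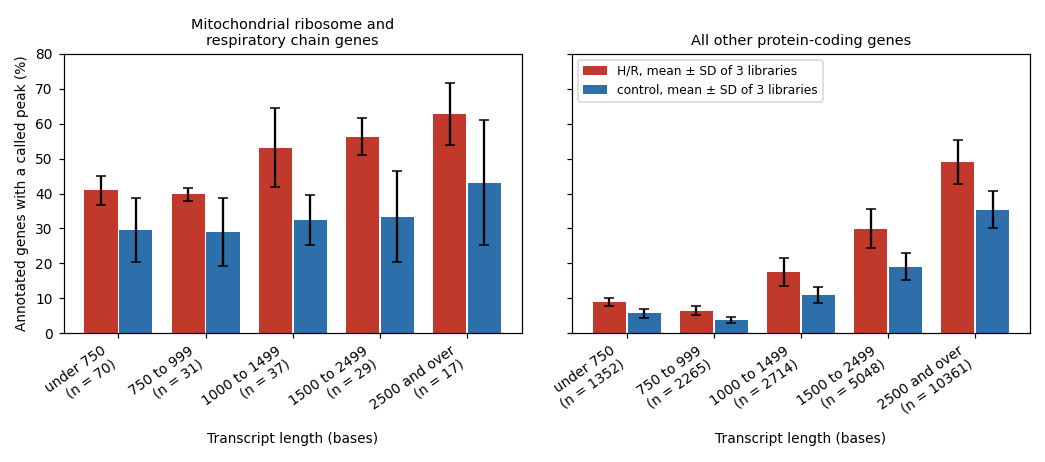
Mean percent of genes called per list (error bars, SD over 3 libraries) by transcript length, for the mitochondrial family and for all other coding genes, with H/R left of control. The family lies above other genes in every length class.

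Other mitochondrial genes, from lists set by function, were called to different extents. Of the 184 annotated family genes, 47.6% ± 4.93 were called per H/R list and 31.9% ± 9.57 per control list, against 33.9% and 23.4% of all protein-coding symbols. Of 26 respiratory assembly factors with other symbols, 19 were called in at least 1 list, with 59.0% per H/R list and 41.0% per control list. Pet100 and Pet117 (complex IV), Tmem126b (complex I) and Uqcc2 and Uqcc3 (complex III) were called in all 6. Of 17 mitochondrial tRNA ligases, 14 were called, with 62.7% ± 12.2 and 52.9% ± 10.2 per list, and 7 of them in all 6 lists. Mitochondrial translation factors (8 of 13 called), genes for upkeep of the mitochondrial genome (8 of 11) and biogenesis regulators (6 of 7) followed. Mtif2, a translation initiation factor, Ssbp1, the mitochondrial single-strand binding protein, and Top1mt, the mitochondrial topoisomerase, were called in the 3 H/R lists alone. That is 12.5% of the 8 called translation factors and 25% of the 8 called upkeep genes, against 4.95% of all called protein-coding symbols. Tfam, which packages mitochondrial DNA, Polrmt, the mitochondrial RNA polymerase, and the biogenesis regulators Nrf1, Gabpa, Ppargc1b and Pprc1 were called in all 6 lists, while Ppargc1a was called in none. Cytochrome c and partners of complexes III and IV (5 of 6 called, 0 in all lists) had 38.9% ± 25.5 per H/R list and 11.1% ± 9.62 per control list, and citrate cycle genes (9 of 15 called) had 40% ± 13.3 and 28.9% ± 10.2. Cytosolic ribosomal proteins, by comparison, were called for 30 of 85, with 24.7% ± 1.18 per H/R list and 21.6% ± 7.19 per control list. In the 3 H/R lists alone, 0 of them were called. The same count was 0 for the assembly factors with other symbols, the tRNA ligases, the biogenesis regulators and the citrate cycle genes.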

How the data were processed

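MeRIP-seq peak lists of 3 H/R and 3 control libraries were analysed, each an immunoprecipitate called against its input. Per the submitters' processing notes, the authors trimmed reads with cutadapt (1.9.3) and aligned them with HISAT2 (2.0.4) to mm10, and per the study's methods they called peaks with MACS (version not given in the sources used here) and annotated exonic peaks with their own program, without pooling replicates. The deposited score of a peak is −10 log10 of the p-value, at least 50 in all lists. The deposited fold enrichment is a ratio of immunoprecipitate to local background, and the authors gave false discovery rates as a percent. A list made with more reads or another background can hold more and weaker peaks from the same RNA, which was not tested here.

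Genes were matched and assigned to complexes by symbol, and a gene's fold was that of its strongest peak. Peaks were placed on the listed transcripts by their centre (668 of 675 on members), with windows of 100 bases around start and stop codons. Peaks of all lists overlapping by at least 1 base were merged into regions. Log2 fold enrichment of regions in all 6 lists, centred per library, was fitted with limma (3.58.1, R 4.3.3) and adjusted by Benjamini-Hochberg over all 5950 regions. The fit was also run on simulated data with planted differences, and no statement here draws on that run. Shares over the members were given without a test. Sequences were read from the GRCm38 (mm10) RefSeq assembly with pysam (0.24.0). Python 3.11.15, pandas 2.3.3, NumPy 2.4.6, SciPy 1.17.1 and matplotlib 3.10.9 were used.

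The genes named by rule were all members called in the 3 lists of one group alone, the up to 3 most often called genes of each complex, and core genes listed by name. Outside this rule, Mrpl4, Mrpl14, Mrps14, Mrps18a, Mrps24 and Ndufa10 were given fold values after these had been seen. Further members were named for their calls or regions, without fold values. The members, gene lists and rule were chosen with earlier results of these data known. Alternatives were p scores of at least 100, a fold of at least 10, equal list lengths, every peak base instead of the centre, uncentred folds, the highest in place of the strongest peak's fold, a 50% overlap and each library left out. Values from the lncRNA and circRNA lists were looked at for members only. The values of 1 member are not reported here.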

Additional observations from a re-analysis of the deposited data

How the results depend on the processing

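The H/R minus control differences in members called (25.9 percentage points) and in peaks on members (63) kept their direction with p scores of at least 100 and without any single library (20.8 to 35.1 points and 53 to 80 peaks). With a 10-fold minimum they turned to −2.68 points and −5 peaks, and with equal list lengths they were 1.79 points and 2.33 peaks. The share of all genes differed by 24.3 points, by 3.46 with the 10-fold minimum and by −1.05 with equal list lengths. The difference in the stop window (−0.850 points) turned to 0.111 with equal list lengths and to 2.56 without control A, its range without single libraries being −4.66 to 2.56. In the 3′UTR (−8.20) it was −2.80 with equal list lengths, −4.04 counting every peak base and −9.93 to −5.85 without single libraries. In coding sequence (7.57) it was 1.84 with the 10-fold minimum, 1.76 with equal list lengths, 1.68 counting every peak base and 6.45 to 9.06 without single libraries. Members called after H/R alone numbered 8 with p scores of at least 100 (3 of the 9 among them, background 5.97%), 0 under the fold minimum and 0 with equal list lengths, and 9 to 18 without single libraries, with 15 without H/R B (background 11.7%) and 18 without control A (background 10.8%). The count for controls alone was 0 throughout. The cause of these shifts was not tested.

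Centred, 0 regions passed in either direction under every alternative run, leave-outs included, the smallest adjusted p being 0.0587 without H/R B. Uncentred, 22 passed as lower, and the median difference of −0.147 became −0.893, against −0.237 to −0.0865 without single libraries. Of the named regions, Mrpl57 turned to −0.53 uncentred and −0.0408 without control B (range without single libraries −0.0408 to 0.497), Mrps26 to −0.71 uncentred, −0.0033 without H/R A and −0.197 without control B (−0.197 to 0.175), Ndufaf2 to 0.124 without H/R A and 0.0894 without control A (−0.293 to 0.124), Uqcrq to 0.0254 without control C (−0.253 to 0.0254), and Cox5b to −0.60 uncentred and −0.0459 without control A (−0.0459 to 0.330). Without single libraries, Cox17 ran from −1.70 to −0.74, the Ndufa12 start region from −0.618 to −0.0908 and Atp5g3 from −0.295 to −0.103. No paired analysis was possible because the lists carry letters and not the replicate numbers of the labels. Read totals were not used here, and in the lists a gene without a peak cannot be told from one sequenced too thinly.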

Other observations

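In the circRNA lists, Ndufa10, an accessory subunit of complex I, had a peak at chr1:92470817-92470985 with 4.62-, 18.57- and 16.19-fold enrichment in H/R A, B and C and 13.11-fold in control A. The same coordinates and values stood in the mRNA lists, so that linear and circular RNA of this exon cannot be told apart. Ndufs1, which had no mRNA peak in any list, had a circRNA peak of 9.33-fold in H/R A alone (chr1:63157132-63157277). Peaks of the lncRNA lists overlapped 0 mRNA peaks of members in each library.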
